A study of Rattus norvegicus with 6 samples.

Results

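The Slco genes encode the organic anion transporting polypeptides, and 8 of them were examined here in rat renal cortex: Slco1a1, Slco1a4, Slco1a6, Slco2a1, Slco2b1, Slco3a1, Slco4a1 and Slco4c1. The genes were chosen by name, with earlier results of these data known. Every non-control probe whose RefSeq accession belonged to one of these symbols was taken. This gave 13 of 61526 probes and 8 of 15277 named genes. Probes that the scanner software marked as well above background on 3 or more of the 6 arrays were described and tested, which were 11 of the 13 and covered all 8 genes. Total RNA came from the kidney cortex of male Sprague-Dawley (Crl:CD(SD)) rats, bought at 5 weeks of age, with 1 single-colour (Cy3) array per animal. Of these, 3 were given o-anthranilic acid (ortho-aminobenzoic acid, an aromatic acid that mammals also form from tryptophan) at 1000 mg/kg/day for 4 weeks. The other 3 were given corn oil, the vehicle, for 4 weeks. The labels do not give the route, or the solvent of the treated animals' dose.

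Organic anion transporting polypeptides are multi-pass membrane proteins that carry bile acids, steroid sulfates, thyroid hormones, prostaglandins and many drugs into cells without direct use of ATP. In rat kidney Slco1a1 lies in the apical membrane of the straight proximal tubule, and Slco4c1 carries cardiac glycosides and thyroid hormone across the basolateral membrane of the proximal tubule. Slco2a1 is the prostaglandin transporter, which removes prostaglandins from the extracellular space before they are broken down. Slco3a1 and Slco4a1 are more widely expressed carriers of prostaglandins and thyroid hormones, Slco2b1 carries steroid sulfates and drugs, and Slco1a4 is best known from liver and the blood-brain barrier.

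Markers of kidney cell types were read beside the tissue label. All 9 listed genes of the early proximal tubule, all 9 of the straight proximal tubule and all 6 of podocytes were above background on enough arrays to be tested. So were all 5 listed genes of the inner medulla and all 4 principal cell genes on the array. Detection alone therefore cannot tell cortex from medulla. On the o-anthranilic acid arrays 63.7% to 68.3% of probes were well above background, and on the vehicle arrays 66% to 69.3%. Medians of the log2 fold changes of the remaining marker lists ran from -0.22 for 6 macrophage genes to 0.40 for 5 erythrocyte genes. Values below are log2 of the processed signal minus the array's own 75th percentile, so that 0 is a probe as bright as that percentile, and levels of different probes are not comparable with each other. In RNA of whole cortex, fewer cells of a type and less RNA per cell cannot be told apart.

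The most prominent feature was wide variation between animals of the same group, seen in some members only. Slco1a1, Slco1a6 and Slco4c1 differed several-fold among animals of the same group and were lowest together in the same vehicle animal. Slco2a1 was somewhat higher and Slco3a1 somewhat lower on every o-anthranilic acid array than on any vehicle array. Slco1a4, Slco2b1 and Slco4a1 differed little. No Slco probe passed the threshold. limma with Benjamini-Hochberg adjustment over 41551 probes called 0 of 11 member probes at 0.05, where it called 0% of all probes tested, and the member probes' adjusted p ran from 0.508 to 0.998. At an unadjusted p under 0.05 there were 2 of 11 member probes, 1 higher and 1 lower in treated animals, against 8.45% of all probes, 3.4% higher and 5.05% lower.

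The promoters of 4 members are shown because 3 of these genes varied together between animals and the fourth, Slco1a4, has the promoter most similar to that of Slco1a1. Each line gives the 250 bases before the RefSeq start site on GRCr8, 5′ to 3′ on the gene's own strand, and capitals mark a match to one of the motifs searched.
Slco1a1, chr4:176681993-176682242, minus strand: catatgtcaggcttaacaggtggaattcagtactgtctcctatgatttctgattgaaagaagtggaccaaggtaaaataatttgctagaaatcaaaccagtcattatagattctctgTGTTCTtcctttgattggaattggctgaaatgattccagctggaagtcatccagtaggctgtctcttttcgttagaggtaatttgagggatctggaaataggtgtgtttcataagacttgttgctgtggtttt
Slco1a6, chr4:176839033-176839282, minus strand: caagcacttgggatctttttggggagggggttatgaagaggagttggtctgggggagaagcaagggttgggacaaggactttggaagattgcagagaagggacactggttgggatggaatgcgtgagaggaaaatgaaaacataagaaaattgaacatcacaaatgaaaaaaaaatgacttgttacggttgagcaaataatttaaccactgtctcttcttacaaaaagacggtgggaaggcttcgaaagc
Slco4c1, chr9:104676463-104676712, minus strand: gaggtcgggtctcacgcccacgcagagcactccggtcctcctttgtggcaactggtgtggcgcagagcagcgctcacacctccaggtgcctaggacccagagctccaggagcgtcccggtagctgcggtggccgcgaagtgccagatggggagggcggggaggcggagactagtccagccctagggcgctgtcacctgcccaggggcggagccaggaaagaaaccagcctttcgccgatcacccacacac
Slco1a4, chr4:176495847-176496096, minus strand: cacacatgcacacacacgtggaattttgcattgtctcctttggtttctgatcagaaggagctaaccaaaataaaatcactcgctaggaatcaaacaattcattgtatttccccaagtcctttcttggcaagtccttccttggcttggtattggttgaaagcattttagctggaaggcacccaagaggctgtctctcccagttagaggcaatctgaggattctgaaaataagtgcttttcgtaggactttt
All 8 members matched an entry of the RefSeq promoter table. In global alignments of the 28 pairs of member promoters, Slco1a1 and Slco1a4 were 66.4% identical. The next most similar pair had 50.4% and the least similar 39.6%. Over the whole window the 3 genes that varied together were less alike. Identity was 43.9% between Slco1a1 and Slco1a6, 43.5% between Slco1a1 and Slco4c1 and 39.6% between Slco1a6 and Slco4c1. Identity over whole windows cannot show whether shorter stretches are shared, and identity between unrelated promoters was not computed. The Slco1a1 and Slco1a6 windows were 38.4% and 43.2% G or C, and the Slco4c1 window 67.2%. Of the motifs searched on both strands, the steroid receptor half-site AGAACA occurred once among these 4 windows, on the minus strand from -133 to -128 of Slco1a1, and it is present in 17.5% of 33469 promoters of the same length. The HNF1 half-site GTTAAT (6.5% of promoters), the nuclear receptor half-site AGGTCA (14.1%) and the TATA box TATAAA (12.9%) were not in these windows, nor was the full HNF1 palindrome (1 of 33469), which contains the half-site. In the order of the RefSeq annotation Slco1a4, Slco1a1, Slco1a3, Slco1a6 and Slco1a5 follow each other among the Slco genes of chromosome 4, and Slco4c1 lies on chromosome 9.

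Slco1a1 (NM_017111) encodes the first cloned member of the family, a carrier of steroid sulfates and bile acids. Its level was 1.80, 2.44 and 1.11 on the o-anthranilic acid arrays, against 2.44, 0.37 and 1.53 on the vehicle arrays. The groups overlapped, vehicle replicate 2 alone lay below every treated animal, and both the highest vehicle animal and the highest treated animal stood at 2.44. The log2 fold change was 0.34 ± 0.58 (SE, n = 3 per group), with a 95% interval from -1.07 to 1.74 and a limma adjusted p of 0.897. It was -0.20 without vehicle replicate 2, 0.84 without vehicle replicate 1 and 0.01 without o-anthranilic acid replicate 2.

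Slco1a6 (NM_130736) encodes a close paralog of Slco1a1 that is expressed mainly in kidney. It stood at 1.49, 1.67 and 0.24 in treated animals, against 1.14, -0.77 and 0.06 in vehicle animals. Treated replicates 1 and 2 were above every vehicle animal, and treated replicate 3 was below vehicle replicate 1. The mean was 1.99-fold higher in treated animals, a log2 fold change of 0.99 ± 0.58 (SE, n = 3 per group) with a 95% interval from -0.42 to 2.40 and a limma adjusted p of 0.676. Without vehicle replicate 2 it was 0.53, and without vehicle replicate 1 it was 1.49, both with n reduced to 5 arrays.

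Slco4c1 (NM_001002024) was measured by 2 probes. The brighter one stood at -2.66, -2.68 and -3.85 in treated animals, against -2.33, -4.78 and -3.80 in vehicle animals. The dimmer one stood at -3.96, -3.86 and -5.20, against -3.90, -5.88 and -5.01 in vehicle. Both probes placed the animals alike: treated replicates 1 and 2 and vehicle replicate 1 were high, treated replicate 3 and vehicle replicate 3 low, and vehicle replicate 2 lowest. The log2 fold changes were 0.58 ± 0.66 and 0.59 ± 0.58 (SE, n = 3 per group), with limma adjusted p of 0.836 and 0.804 and 95% intervals from -1.03 to 2.18 and from -0.83 to 2.01. For the brighter probe the value was 0.0041 without vehicle replicate 2 and 1.23 without vehicle replicate 1.

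**Figure D1:**
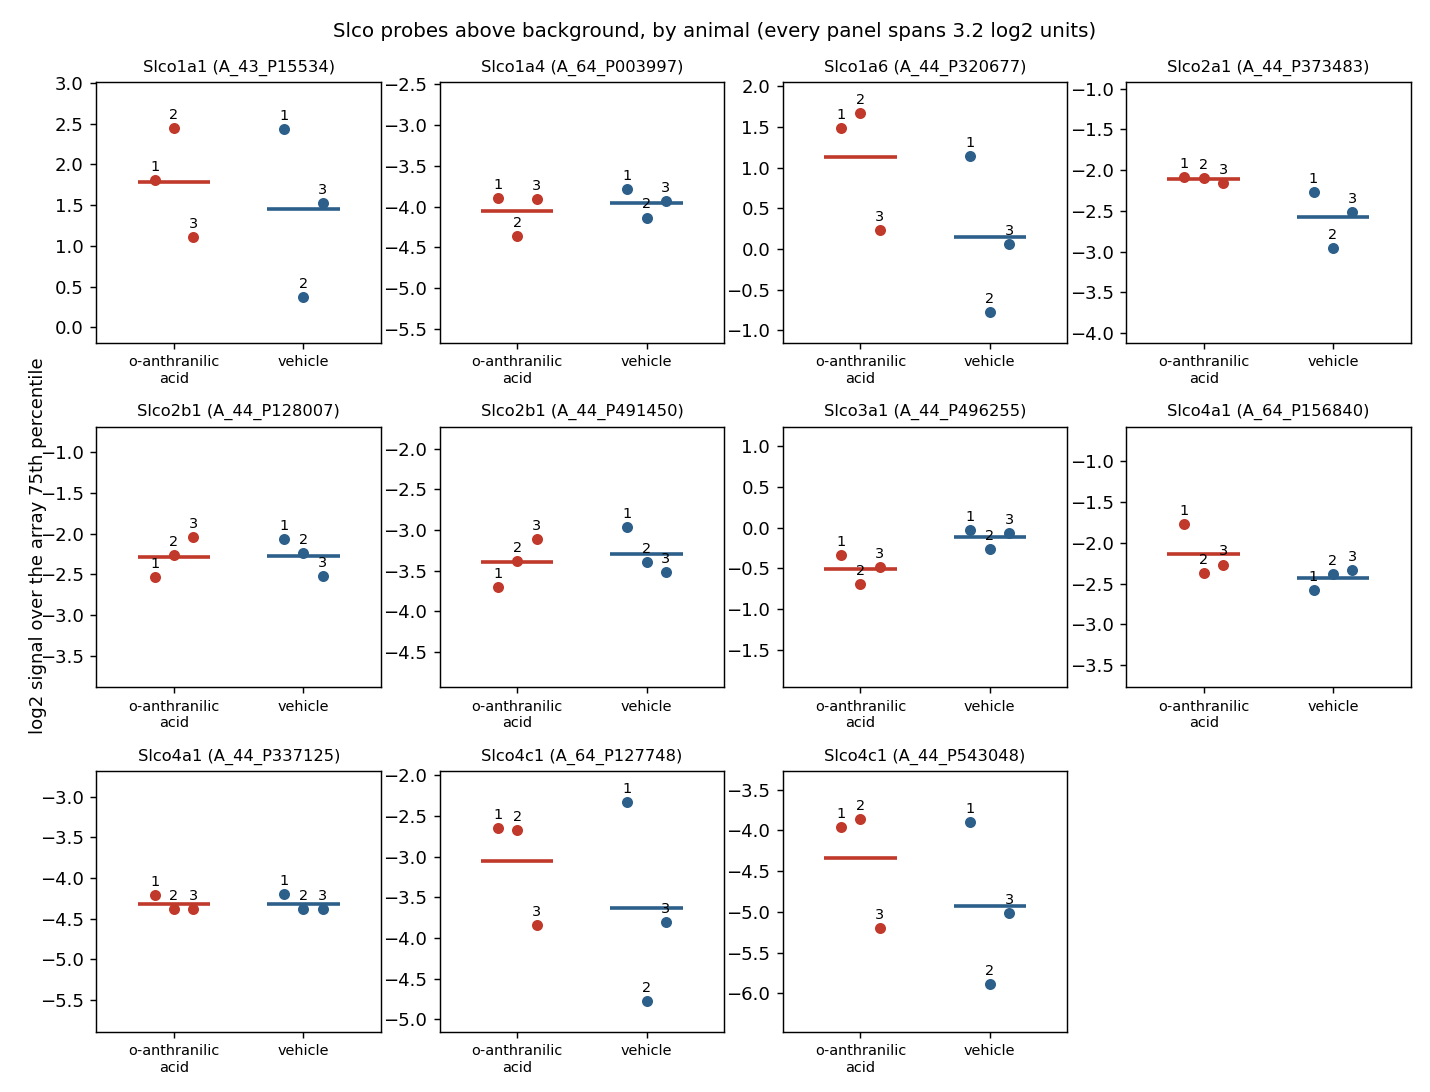
Log2 signal over the array's 75th percentile (vertical axis) for the 11 Slco probes above background, with o-anthranilic acid animals left and vehicle animals right in each panel. Points are animals, numbered by replicate, and bars are means of 3. All panels span the same number of log2 units, so the wide scatter of Slco1a1, Slco1a6 and Slco4c1 stands against the narrower scatter of the other members.

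The spread of these 3 genes between animals was large for this array. Their SD over the 3 treated animals was 0.67 for Slco1a1, 0.78 for Slco1a6 and 0.68 for the brighter Slco4c1 probe, against a median of 0.12 over all probes tested. Over the 3 vehicle animals it was 1.04 for Slco1a1, 0.96 for Slco1a6 and 1.23 for Slco4c1, against a median of 0.13. Only 0.859%, 1.08% and 0.522% of all probes tested had a larger vehicle SD than these. Between the highest and the lowest vehicle animal the signal differed 4.19-fold for Slco1a1, 3.78-fold for Slco1a6 and 5.47-fold for Slco4c1. Between the highest and lowest treated animal it differed 2.53-fold, 2.70-fold and 2.29-fold for the same genes. With 1 array per animal, differences between animals and between arrays cannot be told apart, and treated replicate 2 was alone on its slide.

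Relative to the vehicle mean, Slco1a6 stood at 1.35, 1.53 and 0.10 in treated animals and at 1.00, -0.92 and -0.08 in vehicle animals. Slco4c1 stood at 0.98, 0.96 and -0.21 in treated animals and at 1.31, -1.14 and -0.16 in vehicle animals. Slco1a1 stood at 0.36, 1.00 and -0.34 in treated animals and at 0.99, -1.07 and 0.08 in vehicle animals. All 3 genes were lowest in vehicle replicate 2, and treated replicate 1 was the animal in which Slco1a1 stood furthest below the others. With each gene centred on its mean of 6 arrays, the mean absolute difference was 0.214 between Slco4c1 and Slco1a6, 0.236 between Slco1a1 and Slco4c1 and 0.325 between Slco1a1 and Slco1a6. Genes that vary little are also close on this measure, as Slco3a1 and Slco1a4 were at 0.141.

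**Figure D2:**
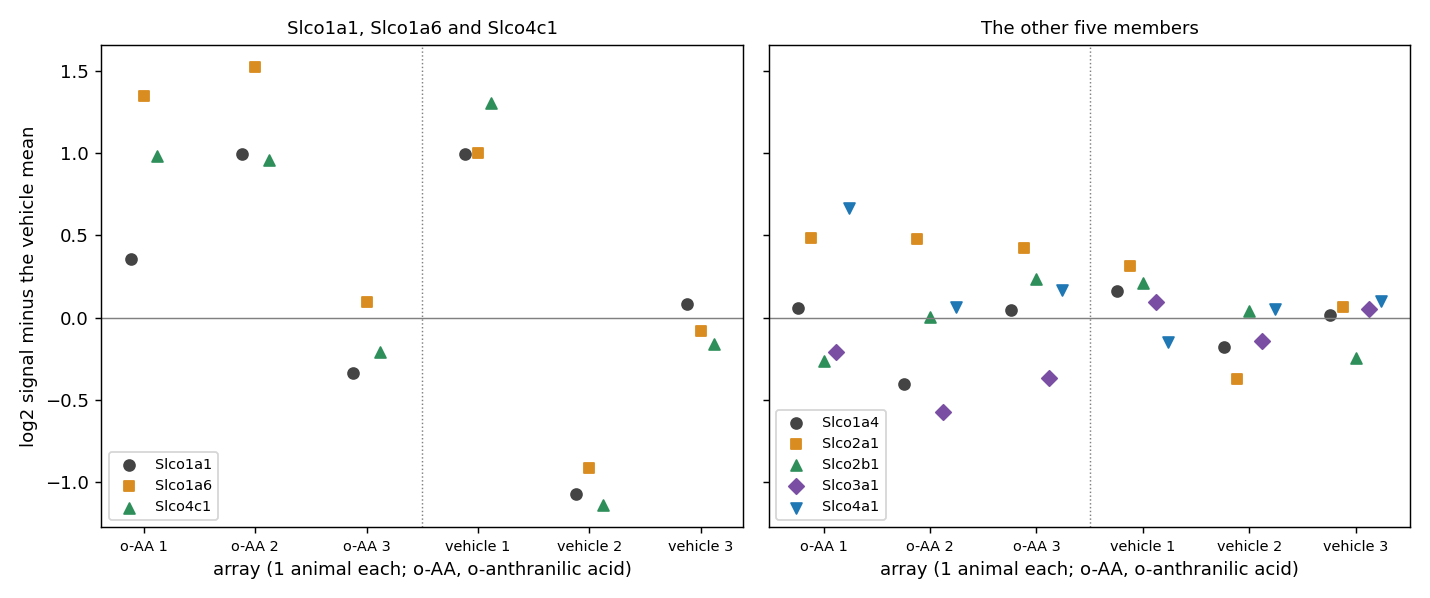
Log2 signal of each member's brightest probe minus its vehicle mean (vertical axis) on each array, o-anthranilic acid animals left of the dotted line and vehicle animals right of it. Slco1a1, Slco1a6 and Slco4c1 (left panel) are near 1 or above in treated replicate 2 and vehicle replicate 1 and near -1 in vehicle replicate 2, and the other members (right panel) stay between -0.573 and 0.668.

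Slco1a3 and Slco1a5, close paralogs outside the 8 members, had a similar pattern. Slco1a3 (NM_030837), whose products are the kidney carriers OAT-K1 and OAT-K2 and which was named here after its values were seen, had 3 probes with log2 fold changes of 0.69, 0.72 and 0.71. Slco1a5 (NM_030838), a carrier of bile acids and thyroid hormone, had one of 0.72 ± 0.48 (SE, n = 3 per group). Their centred values differed from each other by 0.044 on average and those of Slco1a5 and Slco1a6 by 0.173. These genes lie near each other and have similar coding sequences, and cross-hybridisation between their probes was not tested. Among the other listed Slco genes, Slco5a1 and Slco1b2 had brightest-probe log2 fold changes of -0.50 ± 0.28 and -0.36 ± 0.32, and neither was lowest in vehicle replicate 2. Slco1b2 was above background on 2 of 3 treated arrays. A second Slco5a1 probe had -0.22 ± 0.09, at an unadjusted limma p of 0.042 and an adjusted p of 0.574, and its treated animals were all below its vehicle animals. Slco1c1 and Slco6c1 were not well above background on any array. Of the 8 other Slco symbols listed, 5 were on the array and 3 were tested, and limma called 0 of 3 higher and 0 lower at the adjusted threshold.

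Some markers of the straight proximal tubule were low in the same vehicle animal. The mean of the 9 listed genes, relative to their vehicle means, was 0.55, 0.41 and 0.17 in treated animals, against 0.29, -0.30 and 0.00 in vehicle animals, lowest in vehicle replicate 2 as for the 3 Slco genes. Of the 9, Slc22a7, Slc7a13, Ggt1 and Slc3a1 were themselves lowest in that animal, and the other 5 were lowest elsewhere. Their summed signal, in units of the array's 75th percentile, ranged from 924.2 to 1076 in treated animals and from 844.3 to 1102 in vehicle animals, and no marker on the list was below background. For the 9 genes of the early proximal tubule the means were -0.03, 0.08 and -0.02 in treated animals, against -0.02, 0.07 and -0.05 in vehicle animals, and the sums ran from 858 to 897.8 and from 868 to 883.3. The 3 tested genes of the thick ascending limb averaged 0.08, -0.03 and -0.18 in treated animals, against 0.03, -0.27 and 0.24 in vehicle animals. Their mean was also lowest in vehicle replicate 2, but it was highest in vehicle replicate 3, unlike that of the straight tubule. Of the 3 genes, 2 were lowest in vehicle replicate 2, Kcnj1 only narrowly (0.63, against 0.64 in treated replicate 2). A lowest mean in that animal was thus not seen in the straight tubule list alone. The part of these lists in the Slco values was not tested.

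Genes with the most similar patterns over the 6 arrays were named for the 2 members with the largest SD over all arrays, Slco1a6 and Slco4c1, by the smallest mean absolute difference of centred values among 11912 other named genes. For Slco4c1 these were Cyp8b1, a sterol 12-alpha-hydroxylase, at 0.0693, Hnmt, histamine N-methyltransferase, at 0.141, and Mep1b, a subunit of the brush border protease meprin, at 0.146. For Slco1a6 they were Hnmt at 0.0866, Pkd2l2 at 0.115 and Sspo at 0.137. Hnmt, shared by both, stood at 0.75, 0.99 and -0.45 from its own mean in treated animals and at 0.76, -1.47 and -0.57 in vehicle animals.

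Because the 3 variable genes shared so much of their scatter, their differences within an array were compared as well, a comparison chosen after the values were seen. Slco1a6 minus Slco1a1, set to a vehicle mean of 0, was 0.99, 0.53 and 0.44 in treated animals, against 0.01, 0.16 and -0.17 in vehicle animals, and the groups did not overlap. The difference averaged 0.65 with an SD of 0.30 in treated and 0.16 in vehicle animals (n = 3 each), and the exact two-sided permutation p was 0.1, the smallest that 3 against 3 animals allow. Without 1 array at a time it lay between 0.48 and 0.76. Slco4c1 minus Slco1a6 averaged -0.41 in treated animals, with values of -0.37, -0.57 and -0.31, against 0.31, -0.23 and -0.08 in vehicle animals (exact permutation p of 0.1, n = 3 each). Slco4c1 minus Slco1a1 averaged 0.24 and overlapped (exact permutation p of 0.4, n = 3 each). After adjustment over these 3 pairs the p-values were 0.15, 0.15 and 0.4. On these arrays Slco1a6 was higher relative to Slco1a1 on 3 of 3 treated arrays than on any vehicle array, while neither gene alone separated the groups. How often other pairs of genes separate the groups was not computed, and 15% of single probes did so. This post hoc comparison therefore cannot show that the difference was particular to these genes.

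Slco2a1 (NM_022667), the prostaglandin transporter, was at -2.09, -2.10 and -2.15 in treated animals, against -2.26, -2.95 and -2.51 in vehicle animals. Every treated animal was above every vehicle animal, and the treated animals were close together. The vehicle animals stood in the same order as for Slco1a1, Slco1a6 and Slco4c1, with replicate 1 highest and replicate 2 lowest. The mean was 1.38-fold higher in treated animals, with a log2 fold change of 0.46 ± 0.18 (SE, n = 3 per group) and a 95% interval from 0.04 to 0.89. The limma adjusted p was 0.566. The gap between the lowest treated and the highest vehicle animal was small against the vehicle SD of 0.35, and the log2 fold change was 0.27 without vehicle replicate 2 and 0.62 without vehicle replicate 1. Within the slide that held both groups, which leaves out treated replicate 2, it was 0.45.

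Slco2a1 is also expressed in endothelium and in the collecting duct, and markers of both were read beside it. The 7 measured endothelial genes of 8 listed averaged -0.14, -0.19 and -0.02 in treated animals relative to vehicle means, against -0.08, 0.00 and 0.08 in vehicle animals, with summed signals of 75.59 to 85.71 and 78.4 to 89.28. The 4 measured principal cell genes of 5 listed averaged -0.21, -0.20 and -0.02, against -0.16, 0.05 and 0.11 in vehicle animals, with sums of 104 to 127.6 and 121.5 to 144. Every tested marker of both lists was above background on all 6 arrays, and 2 of the 7 endothelial and 0 of the 4 principal cell genes had a log2 fold change above 0. Their part in the Slco2a1 values was not tested.

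Slco3a1 (NM_177481) was the member with the smallest p. Its level was -0.33, -0.69 and -0.49 in treated animals, against -0.03, -0.26 and -0.07 in vehicle animals. All 3 treated animals were below all 3 vehicle animals, although treated replicate 1 and vehicle replicate 2 lay close together. The mean was 1.30-fold lower in treated animals, a log2 fold change of -0.38 ± 0.12 (SE, n = 3 per group) with a 95% interval from -0.68 to -0.09 and a limma adjusted p of 0.508. Without 1 array at a time the log2 fold change ran from -0.47 to -0.29, and with normexp background correction the groups overlapped. Within the slide that held both groups it was -0.29.

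Slco2a1 and Slco3a1 were thus the 2 of 11 member probes whose groups did not overlap, 1 higher and 1 lower in treated animals. Over all probes tested the groups did not overlap for 15%, with 6.25% higher and 8.71% lower in treated animals, so the members' count was near the background.

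Slco4a1 (NM_133608), a carrier of thyroid hormone and bile acids, had 2 probes that behaved differently. The brighter probe stood at -1.77, -2.37 and -2.27 in treated animals, against -2.58, -2.38 and -2.33 in vehicle animals. Treated replicate 1 was clearly the highest, vehicle replicate 1 was the lowest, and the others lay together between -2.38 and -2.27. Its log2 fold change was 0.30 ± 0.17 (SE, n = 3 per group), with a limma adjusted p of 0.676. It was 0.11 without treated replicate 1 and 0.22 without vehicle replicate 1. The dimmer probe stood at -4.21, -4.38 and -4.38, against -4.19, -4.38 and -4.39 in vehicle animals, with a log2 fold change of -0.0016 ± 0.09. Its 95% interval ran from -0.23 to 0.22. The difference between the 2 probes ranged over 0.836 log2 units across the arrays, against 0.259 for the probes of Slco2b1 and 0.466 for those of Slco4c1. It lay furthest from its mean in treated replicate 1 (0.41) and vehicle replicate 1 (-0.43).

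Slco2b1 (NM_080786) overlapped between the groups on both of its probes. The brighter one stood at -2.54, -2.27 and -2.04 in treated animals, against -2.07, -2.23 and -2.52 in vehicle animals. Its log2 fold change was -0.0080 ± 0.17 (SE, n = 3 per group) with a 95% interval from -0.42 to 0.41. The dimmer probe had -0.11 ± 0.20 and the same order of animals within the treated group.

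Slco1a4 (NM_131906) was seen by 1 of its 3 probes. That probe stood at -3.90, -4.36 and -3.91 in treated animals, against -3.79, -4.14 and -3.94 in vehicle animals, and the groups overlapped. The log2 fold change was -0.10 ± 0.16 (SE, n = 3 per group), with a 95% interval from -0.49 to 0.29 and a limma adjusted p of 0.886. The other 2 probes were not well above background on any array, so the 3 probes of this gene did not agree on whether it was detected. The vehicle SD of the detected probe was 0.17, against 1.04 for the much brighter probe of Slco1a1, the gene with the most similar promoter. A link between promoter similarity and spread was not tested.

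**Figure D3:**
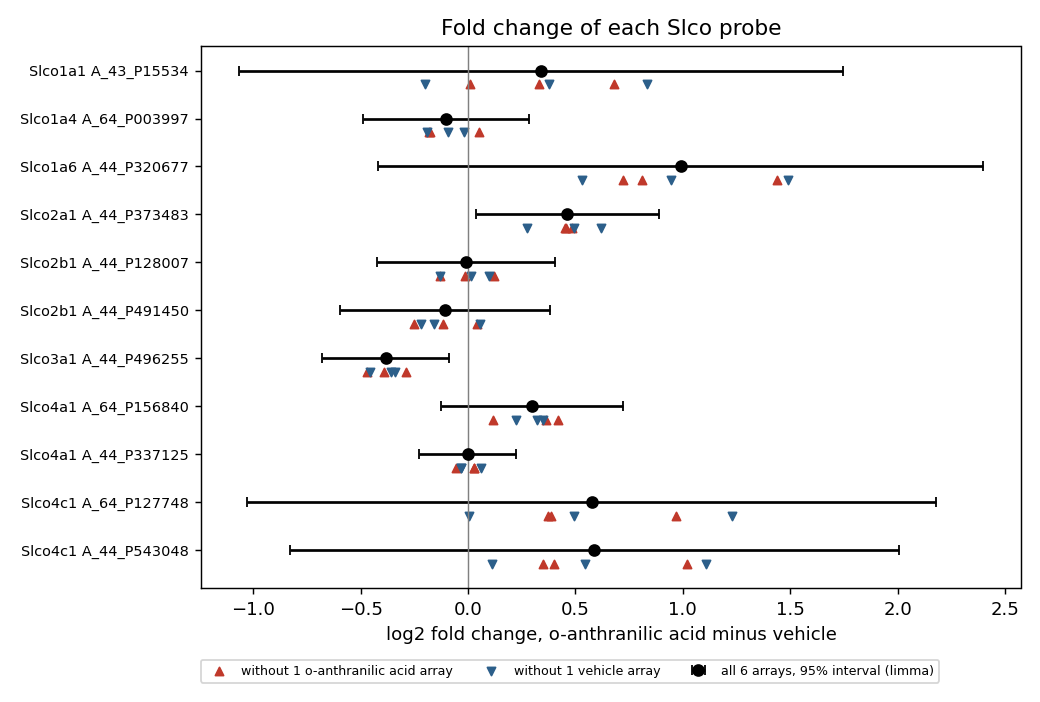
Log2 fold change of each Slco probe, o-anthranilic acid minus vehicle (horizontal axis), with its 95% interval from limma (black) and the values with 1 array left out (triangles). The intervals of Slco1a1, Slco1a6 and Slco4c1 are the widest, and only those of Slco2a1 and Slco3a1 exclude 0 before adjustment.

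The brightest probes of the 8 members had a median log2 fold change of 0.32, with 5 of 8 above 0, beside a median of -0.01 over all probes tested. Organic anion carriers of other families were read in the same way. Of 14 tested carriers of uptake and exchange (19 listed), 13 had a log2 fold change above 0, with a median of 0.22. Slc17a3 and Slc2a9, both carriers of urate, had the smallest p, with log2 fold changes of 0.35 ± 0.09 each (SE, n = 3 per group) and limma adjusted p of 0.456 and 0.470. Slc22a6 and Slc22a8, the main basolateral uptake carriers of organic acids, were at 0.12 ± 0.09 and 0.03 ± 0.07. Of the 9 efflux pumps 7 were above 0, with a median of 0.18. The apical pump Abcc2 was 1.68-fold higher in treated animals (0.74 ± 0.18) and Abcc4 1.41-fold (0.50 ± 0.13), and neither passed the threshold. In both lists limma called 0 genes higher and 0 lower. The groups did not overlap for 6 of the 14 carriers and for 4 of the 9 pumps, all higher in treated animals, beside 6.25% of all probes that did not overlap and were higher. All lists here and below were chosen with earlier results of these data known. Their counts therefore cannot show an excess over the share of all probes.

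Genes of prostaglandin synthesis, breakdown and reception were read beside Slco2a1. Of 15 tested (19 listed), 14 had a log2 fold change below 0, with a median of -0.10, and 5 did not overlap between the groups, all lower in treated animals, beside 8.71% of all probes. Of these 5, Ptgfr, Ptgis and Ptger4 were above background on every vehicle array but not on every treated array. They passed the filter mainly through the group where they were higher, so they add no support to this count, to the count below 0 or to the median. Hpgd and Ptgr2 were above background on all 6 arrays. Hpgd (NM_024390), the dehydrogenase that inactivates prostaglandins after uptake by Slco2a1, was at 1.04, 1.69 and 0.92 in treated animals, against 2.38, 1.69 and 2.39 in vehicle animals. Treated replicate 2 and vehicle replicate 2 were nearly equal, so the groups barely separated, and the other animals were well apart. Its mean was 1.92-fold lower in treated animals (-0.94 ± 0.27, SE, n = 3 per group), with a limma adjusted p of 0.488. Ptgfr, the receptor for prostaglandin F, had -0.50 ± 0.16 at an adjusted p of 0.508, and was above background on 1 of 3 treated and 3 of 3 vehicle arrays. None of the 15 passed in either direction, and Ptgs2, Hpgds and Ptger2 were too dim to be tested.

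The remaining lists held no gene that passed. Of 12 tested genes of thyroid hormone transport and action 5 were above 0, with a median of -0.10. Dio1, a deiodinase of kidney and liver, was at -0.13 ± 0.08. Of 7 tested genes of steroid sulfate handling 3 were above 0. Sult1a1, a phenol sulfotransferase, stood at 0.31 ± 0.12 and Sts, which splits steroid sulfates, at -0.29 ± 0.14. Of 14 nuclear receptors and other factors linked to the control of Slco genes 6 were above 0, with a median of -0.03. Ppara, a receptor for fatty acids, had -0.30 ± 0.19, and Ahr, the aryl hydrocarbon receptor, was at 0.0070 ± 0.27.

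**Figure D4:**
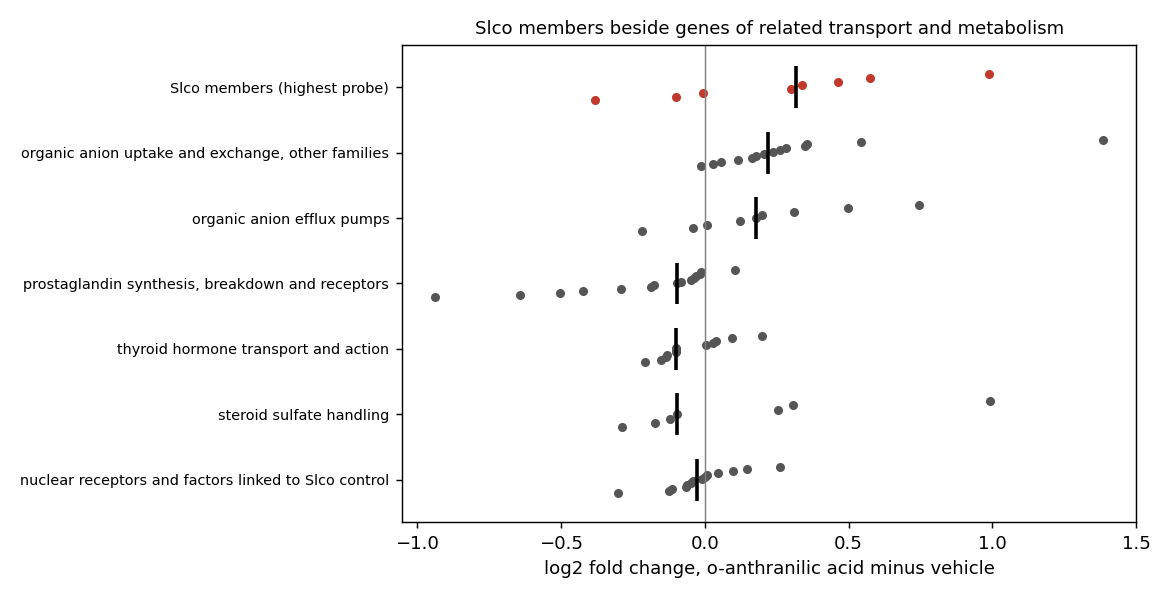
Log2 fold change, o-anthranilic acid minus vehicle (horizontal axis), of the brightest probe of each Slco member (red) and of each tested gene in 6 lists of related transport and metabolism (grey), with black bars at the medians. Carriers and efflux pumps lie mostly right of 0, with medians of 0.22 and 0.18, and prostaglandin genes mostly left of it, with a median of -0.10. The prostaglandin genes include 3 that were not above background on every array.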

How the data were processed

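Renal cortex RNA was hybridised to single-colour Agilent arrays. Per the submitters' processing notes, the images were read with Agilent Feature Extraction 10.7. As deposited, each scanner file holds spot intensity on a linear scale, background-subtracted and not normalised between arrays, per the file headers. A table of values deposited by the authors holds a ratio that matched the processed signal over the array's 75th percentile to a median relative difference of 0.00347 or less, linear and not centred. Its column medians were 0.106, 0.104 and 0.103 for treated and 0.104, 0.106 and 0.103 for vehicle. Its columns 1, 2 and 3 matched the scanner files of replicates 3, 1 and 2 in both groups. Which numbering holds is unknown, and replicates are named here by scanner file.

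Of 61657 non-control probes, 84 external-control probes and 47 outlier-flagged ones were removed, and no spot was saturated. Through RefSeq accessions (GRCr8 table), 27435 of 61526 probes were named. The log2 processed signal minus the 75th percentile was fitted per probe with limma 3.58.1 in R 4.3.3 (lmFit, eBayes), o-anthranilic acid minus vehicle. Intervals are at 95%. The fit was tested on simulated data. The brightest probe stood for a gene in lists. Named genes were all members, and the 2 smallest p of each list, with Slc22a6, Slc22a8 and Abcc2 always given. Ahr and Slco1a3 were added after their values were seen, and some genes that the rule names are not reported here. Members and lists were chosen with earlier results of these data known. The planned comparison of proteins was not made. Promoters were aligned with Biopython 1.88. Alternatives were normexp (offset 50, on median signals), quantile normalisation, the 75th percentile of probes detected on all arrays, the authors' values, other filters, 1 probe per gene, a variance trend with robust fit, replicate and slide blocks, and each array left out. The labels call the samples biological replicates, and their number limits the precision.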

Additional observations from a re-analysis of the deposited data

How the results depend on the processing

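Over 173 recalculated member values no member probe passed the threshold, and 15 changed sign, all for probes whose own 95% interval included 0. Slco1a4 was at 0.043 with normexp and at 0.049 with the slide as a block, and the brighter Slco2b1 probe at 0.023 with normexp. The dimmer Slco4a1 probe was at 0.0037 with quantile normalisation and at 0.026 with the slide as a block. That block equals the fit without treated replicate 2, the one array of its slide. Without 1 array, Slco1a1 ran from -0.20 to 0.84, Slco1a4 from -0.19 to 0.049, the Slco2b1 probes from -0.13 to 0.12 and from -0.25 to 0.055, and the dimmer Slco4a1 probe from -0.057 to 0.062. The cause of these shifts was not tested. Over all 41551 probes limma called 0, and 3510 had an unadjusted p under 0.05. It called 6 with normexp, 6 with trended variance and robust fitting, 4 with the slide as a block, 1 of 37856 above background on all arrays, and 0 to 4 without 1 array: 3 without treated replicate 1, 4 without treated replicate 2, 3 without vehicle replicate 2 and 0 in the other 3 cases. Of probes with an unadjusted p under 0.05, 40.2% were higher in treated animals, against 50.7% with no filter on dim probes. Groups did not overlap for 6217 probes, and for 9690 to 11392 without 1 array, where fewer samples make overlap less likely. Non-overlapping member probes were 1 with normexp and 2 to 4 without 1 array, the 4 without vehicle replicate 1. With the replicate number as a block limma called 0 of all probes and 0 member probes. Deviations of same-numbered animals correlated at 0.0074, -0.044 and -0.0051, and those of different-numbered animals between -0.084 and 0.085. The numbers thus gave no sign of pairing, though with 3 animals per group this check is weak.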
